A study of Gallus gallus with 9 samples.

Results

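The ELAVL genes, which encode the Hu family of RNA-binding proteins, were followed in the chick olfactory placode over 3 stages of development. Members were all probe sets to which the platform annotation gave exactly 1 gene symbol, that of ELAVL1, ELAVL2, ELAVL3 or ELAVL4. Of these 4 genes, 3 had such probe sets, out of 13008 genes on the array, and ELAVL3 had none and was not analysed here. The 3 genes had 10 probe sets among the 37693 chicken probe sets, namely 3 of ELAVL1, 5 of ELAVL2 and 2 of ELAVL4. Probe sets of a gene are called here by their order of mean brightness over all 9 arrays: brightest, middle and dimmest of the 3 tested for ELAVL1 and ELAVL2, and brighter and dimmer for ELAVL4.

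Olfactory placodes, the thickenings of head ectoderm that give rise to the olfactory epithelium and to the neurons that make gonadotropin-releasing hormone (GnRH), had been dissected from chick embryos at Hamburger-Hamilton (HH) stages 16, 18 and 20. The title of the series places these stages in the first phase of GnRH neuron production. Each stage had 3 samples, named here HH16, HH18 and HH20 replicates 1 to 3, which the labels call biological replicates, and each was read on 1 Affymetrix chicken array. The strain, and whether embryos were pooled in a sample, are not given in the labels.

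Hu proteins bind U-rich and AU-rich stretches, mostly in the 3′ untranslated regions and introns of messenger RNAs, and alter the stability, translation and splicing of their targets. ELAVL1 (HuR) is made in most cell types, whereas ELAVL2 (HuB), ELAVL3 (HuC) and ELAVL4 (HuD) are largely neuronal. Antibodies to the neuronal Hu proteins are in wide use to mark newly born neurons in chick embryos, cranial placodes included.

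The deposited intensities were not on a common scale. HH18 replicate 1 had the lowest trimmed mean intensity, 68.75, and HH16 replicate 1 the highest, 162.8, so values were quantile normalized between arrays and are given as normalized log2(intensity + 16). A fold change on this scale understates the change of dim probe sets. Levels are not compared between probe sets, which differ in how brightly they bind. Of 14 olfactory placode markers on the array, 13 were brighter on all 9 arrays than the background, which is the intensity that 99% of virus probe sets on that array stayed under. The exception was SOX2. Precision is limited by the number of arrays. A p-value of the limma fits below rests only on how far samples of a stage lay apart on these arrays. That spread is pooled over the 3 stages and drawn toward that of other probe sets of like brightness.

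The brightest probe sets of ELAVL2 and ELAVL4 rose from HH16 to HH20, and that of ELAVL1 had no call, although the other 2 ELAVL1 probe sets were called higher at HH20. At HH20 the brightest ELAVL2 probe set was 2.28-fold and the brighter ELAVL4 probe set 2.06-fold above HH16, whereas the brightest ELAVL1 probe set differed by -0.01 ± 0.15 (SE) on the log2 scale. The ELAVL2 rise was called at HH18 already, at 2.24-fold. With the tested probe sets of a gene averaged, all 3 genes were higher at HH20 than at HH16, by 0.54 log2 units for ELAVL2, 0.71 for ELAVL4 and 0.38 for ELAVL1. The share of all genes called on that measure was not computed. In these bulk samples, more neurons, more ELAVL RNA per neuron and changes in other cells cannot be told apart.

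Of the 10 ELAVL probe sets, 8 passed the filter on dim values and were tested with limma. A call below means a p under 0.05 after Benjamini-Hochberg adjustment across the 24489 probe sets that passed this filter. Between HH16 and HH18, 3 of the 8 were higher, 1 of each gene, and over all probe sets tested the share called higher was 2.31%. Between HH18 and HH20, 0 of the 8 were called by limma, where 0.359% of all probe sets were called in either direction. At an unadjusted limma p under 0.05 in that step were the brighter ELAVL4 probe set, at 0.002, and the middle ELAVL1 probe set, at 0.0074. Between HH16 and HH20, 4 of the 8 were higher, against 5.81% of all probe sets. The moderated F test for any difference between stages also called 4 of the 8, and 8.7% of all probe sets. The test of whether the later step differed from the earlier one called 0 of the 8, and 0.0327% of all probe sets. The smallest limma p in that test was 0.00016, that of the brightest ELAVL2 probe set, with an adjusted p of 0.1. On the deposited values without normalization, 0 of the 8 were called in any comparison. With median centring 1 was called at HH18 and 2 at HH20 against HH16. Calls over all probe sets in either direction dropped too, from 1111 at HH18 and 2673 at HH20 against HH16. They were 44 and 176 as deposited. With median centring they were 596, of which 10.2% were higher, and 805, of which 53.9% were higher. The brightest ELAVL2 and ELAVL4 probe sets were above HH16 at both later stages under each of these scalings.

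**Figure D1:**
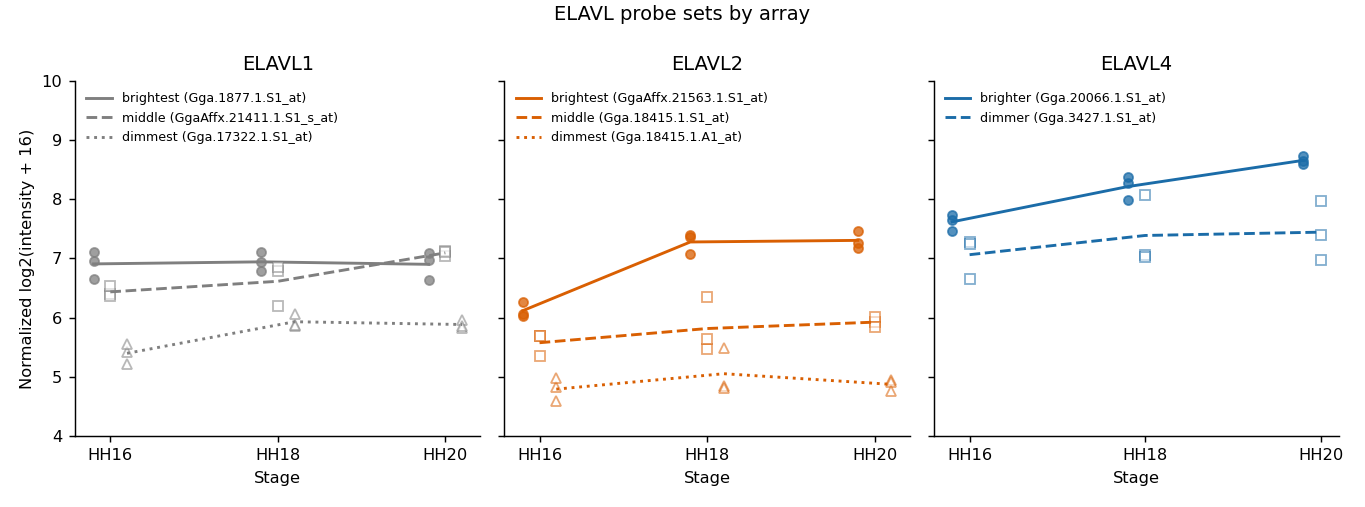
Normalized log2(intensity + 16) of the 8 tested ELAVL probe sets (vertical axis) by stage (horizontal axis), 1 panel per gene, with a point for each array and lines through the mean of the 3 arrays of a stage; the key gives each probe set its order of brightness and its identifier. The 3 HH16 arrays of the brightest ELAVL2 probe set, between 6.03 and 6.26, lie below its 6 later arrays, and those of the brighter ELAVL4 probe set, between 7.46 and 7.74, lie below its 6 later arrays.

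ELAVL2 encodes HuB, which in vertebrate embryos is found in young neurons. Its brightest probe set had deposited intensities of 94.7, 53.5 and 40.2 on the 3 HH16 arrays, of 116.8, 111.5 and 115.8 at HH18, and of 223.2, 137.9 and 116.7 at HH20. After normalization the HH16 arrays read 6.06, 6.26 and 6.03, the HH18 arrays 7.37, 7.07 and 7.40, and the HH20 arrays 7.47, 7.26 and 7.18. All 3 HH16 arrays were below the 6 later ones, with a gap of 0.82 to HH18, and the HH18 and HH20 arrays overlapped.

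The mean normalized level of this ELAVL2 probe set was 6.12 ± 0.12 (SD, n = 3) at HH16, 7.28 ± 0.18 at HH18 and 7.30 ± 0.15 at HH20. Between HH16 and HH18 it rose by 1.16 ± 0.14 (SE) log2 units, or 2.24-fold, with an adjusted p of 0.00014 by limma. That rise ranked 11 among the 10630 genes tested, each represented by its brightest probe set. Between HH18 and HH20 the change was 0.03 ± 0.14, with a 95% interval from -0.26 to 0.31. Over the whole period the rise was 1.19 ± 0.14 log2 units, with an adjusted p of 2.2e-05. Both called rises held when any 1 of the 9 arrays was left out, with adjusted p-values of at most 0.0012 and 0.00045.

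The other ELAVL2 probe sets did not pass the tests. The middle one had normalized levels of 5.69, 5.35 and 5.68 at HH16, of 5.47, 5.63 and 6.34 at HH18, and of 5.92, 6.01 and 5.84 at HH20. Its HH20 arrays were above all 3 HH16 arrays by a gap of 0.15, and its HH18 arrays overlapped both other stages. The HH20 minus HH16 difference was 0.35 ± 0.19 (SE) log2 units, with a 95% interval from -0.05 to 0.75 and an adjusted p of 0.28 by limma.

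The dimmest tested ELAVL2 probe set had deposited intensities from 6.4 to 21.3. Its HH20 minus HH16 difference was 0.08 ± 0.18 (SE) log2 units. At HH16 it was above background on 2 of 3 arrays. The platform annotation gives it the same source sequence as the middle one, and their identifiers differ only in the letter A or S. Whether both read the ELAVL2 message was not tested, and both enter the averages over ELAVL2 probe sets. The remaining 2 ELAVL2 probe sets were above background on 0 of the 9 arrays and were not tested. Their intensities lay between 1.6 and 5.4 and between 0.3 and 4.9.

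Formed within each array, the difference between the brightest and the middle ELAVL2 probe set widened from 0.54 at HH16 to 1.46 at HH18 and stood at 1.38 at HH20. An exact permutation test over the 9 arrays gave p = 0.032 for a difference between stages, and 0.083 after adjustment over 7 pairs of probe sets of the same gene. The difference to the dimmest tested one went from 1.33 to 2.23 and 2.44, with an exact p of 0.011 and an adjusted p of 0.075. None of the 7 pairs passed after adjustment with all 9 arrays. Without HH18 replicate 1, the difference to the dimmest tested ELAVL2 probe set passed, with an adjusted permutation p of 0.025.

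ELAVL4 encodes HuD, which in mammals is known for binding messages of growing axons such as that of GAP43. The brighter of its 2 probe sets had deposited intensities of 302.5, 179.1 and 151.4 at HH16, of 185.1, 273.9 and 246.9 at HH18, and of 526.4, 397.8 and 333.6 at HH20. The normalized levels were 7.46, 7.74 and 7.65 at HH16, 7.98, 8.28 and 8.38 at HH18, and 8.65, 8.73 and 8.59 at HH20. The 3 stages did not overlap: the gap was 0.24 between HH16 and HH18 and 0.21 between HH18 and HH20.

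Its mean level was 7.62 ± 0.14 (SD, n = 3) at HH16, 8.21 ± 0.21 at HH18 and 8.66 ± 0.07 at HH20. From HH16 to HH18 this ELAVL4 probe set rose by 0.60 ± 0.12 (SE) log2 units, or 1.51-fold, with an adjusted p of 0.01 by limma. That call was lost without HH18 replicate 2, where the difference was 0.56 and the adjusted p 0.055. It was also lost with median centring, at 0.27 with a limma adjusted p of 0.56, and on the deposited values, at 0.19 with 0.83. HH18 replicate 2 had the highest background of the 9 arrays, 13.9, and the lowest share of chicken probe sets above it, 46.9%. Without that array, 404 probe sets in place of 1111 were called between HH16 and HH18 over all tested. From HH18 to HH20 the difference was 0.44 ± 0.12, with an adjusted p of 0.17. Over the whole period the rise was 1.04 ± 0.12 log2 units, with an adjusted p of 2.7e-05, and it held when any 1 of the 9 arrays was left out. Among 10630 genes it ranked 165 in the earlier step and 83 over the whole period.

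The dimmer ELAVL4 probe set had normalized levels of 7.28, 6.66 and 7.25 at HH16, of 7.05, 7.03 and 8.08 at HH18, and of 7.40, 7.97 and 6.97 at HH20. The stages overlapped, and arrays of 1 stage lay more than 1 log2 unit apart. Its HH20 minus HH16 difference of 0.38 ± 0.26 (SE) log2 units had a 95% interval from -0.17 to 0.94, which includes 0 and falls short of the 1.04 of the brighter one. The difference between these 2 probe sets within an array did not pass an exact permutation test, with p = 0.3.

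ELAVL1 encodes HuR, the member with broad expression. Its brightest probe set had deposited intensities of 205.5, 76.2 and 99.4 at HH16, of 84, 89.8 and 90.5 at HH18, and of 150.8, 119.6 and 75.7 at HH20. The normalized levels were 6.96, 6.66 and 7.10 at HH16, 6.94, 6.79 and 7.10 at HH18, and 6.97, 7.09 and 6.64 at HH20, so all 3 stages overlapped. The HH20 minus HH16 difference of -0.01 ± 0.15 (SE) had a 95% interval from -0.33 to 0.31, and its adjusted p was 0.98 by limma.

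The other ELAVL1 probe sets were called. The middle probe set, whose suffix in the files marks a design that several transcripts can share, read 6.40, 6.37 and 6.53 at HH16, 6.79, 6.86 and 6.19 at HH18, and 7.04, 7.13 and 7.11 at HH20. All 3 HH20 arrays lay above the 6 earlier ones. The HH20 minus HH16 rise was 0.66 ± 0.16 (SE) log2 units, or 1.58-fold, with an adjusted p of 0.012, and it was no longer past the threshold without HH20 replicate 2, with a difference of 0.64 and an adjusted p of 0.05.

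The dimmest ELAVL1 probe set read 5.21, 5.42 and 5.55 at HH16, 6.06, 5.86 and 5.87 at HH18, and 5.95, 5.83 and 5.86 at HH20. Its HH16 arrays lay below all 6 later ones. It rose by 0.53 ± 0.14 (SE) log2 units to HH18, with an adjusted p of 0.038, and stood 0.49 ± 0.14 above HH16 at HH20, with an adjusted p of 0.033. The earlier call was lost when any array other than HH16 replicate 3 was left out, with adjusted p-values from 0.053 to 0.11. The call over the whole period was lost without HH16 replicate 1 or 2 or any 1 HH20 array, with adjusted p-values from 0.074 to 0.13. The 3 differences between ELAVL1 probe sets within an array had adjusted permutation p-values of 0.17, 0.083 and 0.17, so it was not shown that their courses differ.

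**Figure D2:**
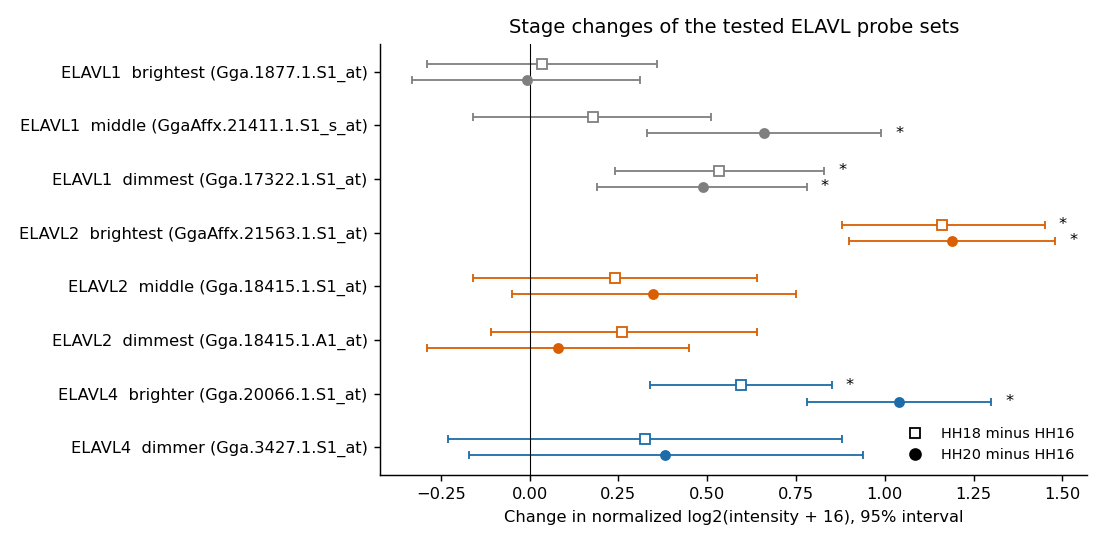
Change in normalized log2(intensity + 16) of each tested ELAVL probe set from HH16 to HH18 (open squares) and from HH16 to HH20 (circles), on the horizontal axis with 95% intervals from the limma fit, and probe sets by gene on the vertical axis; an asterisk marks an adjusted p under 0.05. The intervals of the brightest ELAVL2 probe set begin at 0.88 and 0.9, while those of the brightest ELAVL1 probe set span 0.

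Several ELAVL probe sets varied together among arrays of 1 stage. HH18 replicate 3 was the highest HH18 array on all 3 tested ELAVL2 probe sets, on both ELAVL4 probe sets and on the brightest ELAVL1 probe set, and the lowest on the middle ELAVL1 probe set. The ratio of the 3′ to the 5′ actin control, a measure of RNA and amplification quality, was 2.96, 3.40 and 3.16 at HH16, 3.67, 3.45 and 4.31 at HH18, and 3.15, 2.92 and 3.64 at HH20. All HH18 arrays were thus above all HH16 arrays on this ratio, in the step in which ELAVL2 and ELAVL4 were called, with HH18 replicate 3 the highest of the 9, and HH16 and HH20 overlapped. Without HH18 replicate 3, the HH18 minus HH16 difference was -0.02 for both the middle ELAVL2 and the dimmer ELAVL4 probe set. The part of RNA quality in these values was not tested.

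As a description over 9 arrays that share their normalization, the middle ELAVL2 and the dimmer ELAVL4 probe set had a Pearson r of 0.89, and of 0.88 once each stage's mean was taken away. The brightest probe sets of the same genes had an r of 0.86, which was 0.09 without the stage means. Within ELAVL4 the r between the 2 probe sets was 0.45, and within ELAVL2 it was 0.51 between the brightest and the middle one. The likeness of the bright pair thus lay between stages, and that of the other pair among arrays of the same stage.

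Whether the genes differed in course was asked of the brightest probe set of each, as the difference between 2 genes within each array, with an exact permutation test over the 1680 ways to assign 9 arrays to 3 stages, whose smallest possible p is 0.0036. ELAVL2 minus ELAVL1 was -0.90, -0.40 and -1.07 at HH16, 0.43, 0.28 and 0.30 at HH18, and 0.50, 0.17 and 0.55 at HH20. All 3 HH16 arrays were below the 6 later ones. The exact p was 0.025, and 0.032 after adjustment over the 3 pairs of genes.

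ELAVL4 minus ELAVL1 went from a mean of 0.71 at HH16 to 1.27 at HH18 and 1.76 at HH20, with an exact p of 0.0071 and an adjusted p of 0.021. ELAVL4 minus ELAVL2 was 1.502 at HH16, 0.94 at HH18 and 1.35 at HH20, with an exact p of 0.032 and an adjusted p of 0.032. On their brightest probe sets, the course of ELAVL2 and of ELAVL4 thus differed from that of ELAVL1. In ELAVL4 minus ELAVL2 all 3 HH18 arrays were below the HH16 arrays and overlapped those of HH20. All 3 pairs lost their call when the mean of a gene's tested probe sets took the place of its brightest one, with an adjusted permutation p of 0.6 for each. Both differences to ELAVL1 were lost without HH20 replicate 1 or HH20 replicate 3, with an adjusted permutation p of 0.054. ELAVL4 minus ELAVL2 was lost without any array other than HH18 replicates 2 and 3, with adjusted permutation p-values from 0.061 to 0.089.

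**Figure D3:**
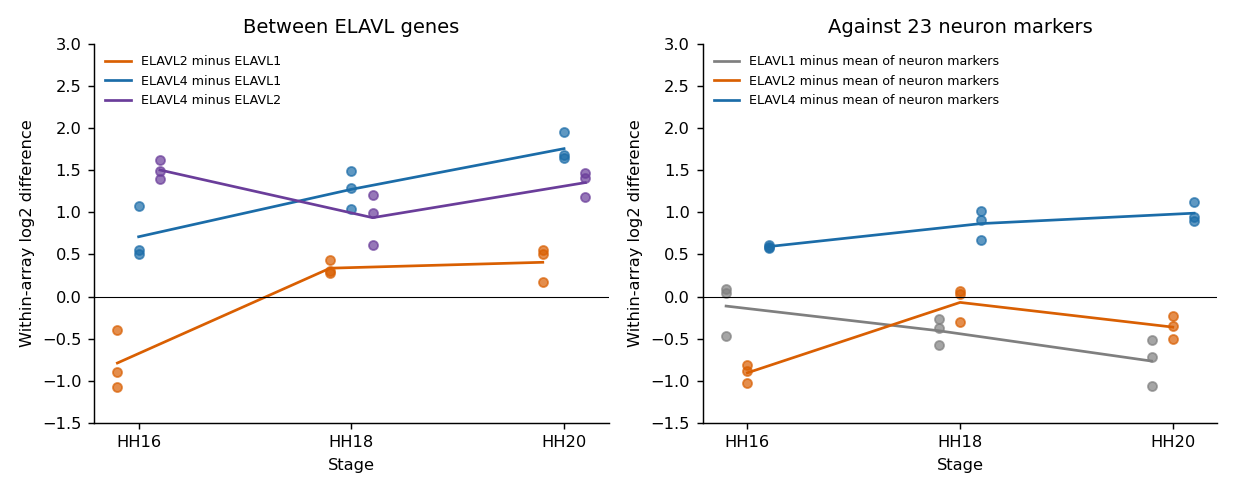
Within-array differences in normalized log2 level (vertical axis) by stage (horizontal axis), between the brightest probe sets of 2 ELAVL genes on the left and between each of them and the mean of 23 neuron markers, described further on, on the right, with a point per array and lines through stage means. ELAVL2 minus ELAVL1 lies between -1.07 and -0.40 at HH16 and between 0.17 and 0.55 at the later stages.

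The mean of a gene's tested probe sets was also fitted with limma, with p adjusted over genes in place of probe sets. On this mean, ELAVL2 rose by 0.55 log2 units to HH18, with an adjusted p of 0.032 by limma, and by 0.54 to HH20, with an adjusted p of 0.019. The mean for ELAVL4 was 0.46 higher at HH18, with an adjusted p of 0.15, and rose by 0.71 to HH20, with an adjusted p of 0.019. The mean for ELAVL1 rose by 0.38 to HH20, with an adjusted p of 0.025. On this measure all 3 genes rose over the whole period, and the lead of the neuronal members over ELAVL1 did not pass a test. The share of all genes called on this measure was not computed, so no result about the family is read from these calls.

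The ELAVL genes were set beside 27 markers of neurons, such as cytoskeletal and secretory vesicle proteins, of which 23 were tested. Of these 23, 17 rose from HH16 to HH20, 0 fell and 6 did not pass, with a median change of 0.59 log2 units. Over all 10630 genes tested, 7.13% were called higher and 6.82% lower, with a median of 0.00. CHGA, a secretory granule protein, rose by 1.57 ± 0.15 (SE), and the transcription factor NHLH2 by 1.54 ± 0.17. STMN2, which loosens microtubules in growth cones, rose by 1.28 ± 0.12, and SCG3, a granin, by 1.04 ± 0.17. The brightest probe sets of ELAVL2 and ELAVL4 thus lay among the larger changes of the list. The other tested probe sets lay below the list median, with changes of 0.35 and 0.08 for ELAVL2 and 0.38 for ELAVL4.

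The count of 17 risen markers rested partly on single arrays. It dropped to 11 when HH16 replicate 1 was left out and to 10 when HH20 replicate 1 was. Leaving out HH20 replicate 3 gave 8, and leaving out HH16 replicate 1 together with HH18 replicate 2 gave 10. It was 2 on the values as deposited and 6 with median centring. In the earlier step 6 of the 23 markers rose, 0 fell and 17 did not pass, against 2.92% of all genes called higher and 2.97% lower, and the median change was 0.28. KIF5C, a neuronal kinesin heavy chain, rose by 0.68 ± 0.12 (SE) to HH18, CHGA by 0.81 ± 0.15 and NHLH2 by 0.79 ± 0.17. Without HH18 replicate 2 that count was 2, and it was 0 on the values as deposited and with median centring.

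In the later step 3 of the 23 markers rose, 0 fell and 20 did not pass. Over all 10630 genes tested, 38 were called higher and 12 lower in that step. The 3 markers were STMN2, higher by 0.73 ± 0.12 (SE), the transcription factor ISL1, by 1.02 ± 0.18, and CHGA, by 0.75 ± 0.15. The ELAVL genes had no call in that step. Of its whole rise to HH20, the brightest ELAVL2 probe set had reached 97.7% by HH18 and the brighter ELAVL4 probe set 57.3%. The 17 risen markers had reached from -30.3% (ISL1) to 88% (CRMP1), with a median of 50.3%. None of the 17 had reached a larger share than this ELAVL2 probe set, and 11 were below and 6 above this ELAVL4 probe set. The other tested probe sets of both genes had no call. The middle ELAVL2 one was 0.24 above HH16 at HH18 and 0.35 at HH20, and the dimmest 0.26 and 0.08. The dimmer ELAVL4 one was 0.32 and 0.38 above HH16, so the shares are those of the brightest probe sets only. The shares also move with the scaling. With median centring the brightest ELAVL2 probe set was 0.87 log2 units above HH16 at HH18 and 1.17 at HH20, and the brighter ELAVL4 probe set 0.27 and 0.98. On the values as deposited this ELAVL2 probe set was 0.79 and 1.17 above HH16, and this ELAVL4 probe set 0.19 and 0.97. The shares of the markers were not computed under those scalings.

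Subtracting the mean of the 23 markers within each array, ELAVL2 stood at -0.91 ± 0.11 (SD, n = 3) at HH16, -0.07 ± 0.20 at HH18 and -0.36 ± 0.14 at HH20. ELAVL4 stood at 0.59 ± 0.01, 0.87 ± 0.18 and 0.99 ± 0.12, and ELAVL1 at -0.12 ± 0.31, -0.40 ± 0.16 and -0.77 ± 0.27. These differences are a description, since the markers had been chosen with earlier results of these data known. By these stage means, the brightest probe set of ELAVL2 was highest relative to the markers at HH18, that of ELAVL4 at HH20 and that of ELAVL1 at HH16. Single arrays did not separate these peaks. The HH18 and HH20 arrays overlapped for ELAVL2 and for ELAVL4, and the HH16 and HH18 arrays for ELAVL1.

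**Figure D4:**
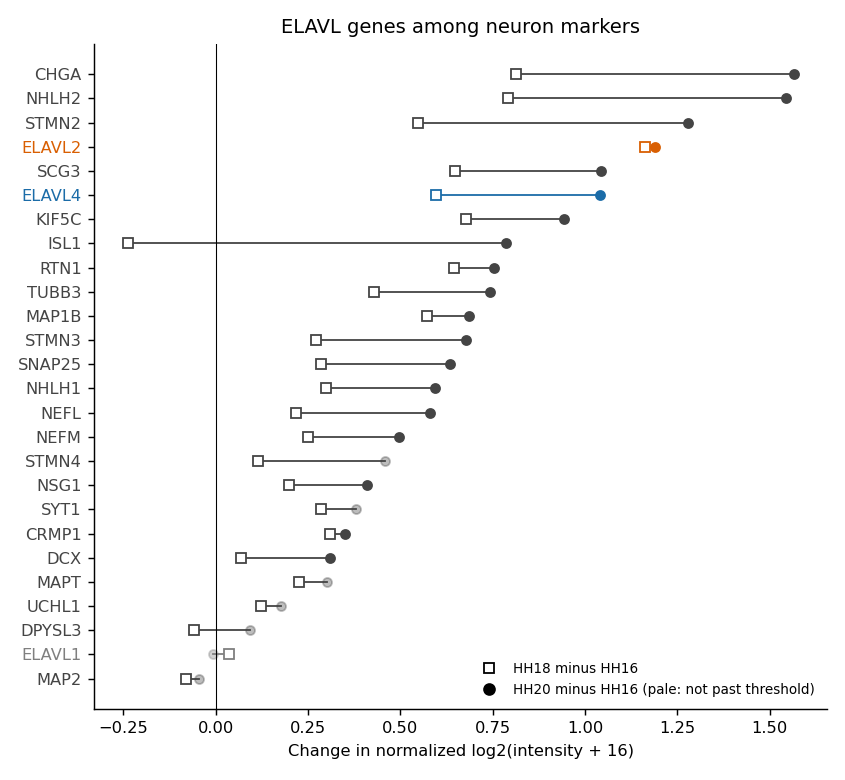
Change in normalized log2(intensity + 16) on the horizontal axis from HH16 to HH18 (open squares) and from HH16 to HH20 (circles, pale where the adjusted p was not under 0.05) for the 23 tested neuron markers and the brightest probe sets of ELAVL1, ELAVL2 and ELAVL4 (coloured names). The square and the circle of ELAVL2 nearly coincide at 1.16 and 1.19. All 23 markers have their circle to the right of their square, by little for some, and 3 of them were called between HH18 and HH20. ELAVL2 was not tested against the markers.

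Proneural and Notch pathway genes, which govern how many placode cells become neurons, moved in both directions. Of 17 tested, 6 rose from HH16 to HH20, 2 fell and 9 did not pass, with a median change of 0.25. The shares over all genes tested in that comparison, 7.13% higher and 6.82% lower, stand beside this list and those that follow. The proneural factor NEUROG1 rose by 1.103 ± 0.15 (SE) log2 units and the Notch ligand JAG1 by 1.04 ± 0.16. EBF2, a transcription factor of differentiating neurons, rose by 0.78 ± 0.14. The Notch ligand DLL1 decreased by 0.82 ± 0.13 and the Notch target HES5 by 0.60 ± 0.11. HEY1, also a Notch target, went the other way and rose by 0.23 ± 0.07. In the step to HH18, in which ELAVL2 rose, 2 of the 17 were higher, 1 was lower and 14 did not pass. Over all genes tested, 2.92% were called higher and 2.97% lower in that step. EBF3 rose by 0.51 ± 0.12 and HEY1 by 0.27 ± 0.07, and the receptor NOTCH2 decreased by 0.42 ± 0.11. NEUROG1 was 0.53 higher at HH18 than at HH16 and did not pass.

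Other RNA-binding proteins of neurons were set beside the ELAVL genes. Of 18 tested, from 26 listed, 2 rose from HH16 to HH20, 0 fell and 16 did not pass, with a median change of 0.06. Over all genes tested, 7.13% were called higher, and no result about the list is read from 2 calls. Several members were dim. CELF6 was above background on 1 array, CELF5 and PTBP2 on 3, SRRM3 on 4 and CELF4 on 5. The other tested members were above background on at least 7 arrays. The splicing regulator KHDRBS2 (SLM1) rose by 0.63 ± 0.18 (SE), with an adjusted p of 0.03 by limma, and was already 0.68 ± 0.18 higher at HH18. FXR1, a relative of the fragile X protein, rose by 0.40 ± 0.10. CELF2, a splicing and stability factor, differed by 0.56 with an adjusted p of 0.1, and NOVA1, a neuronal splicing factor, by 0.03 with an adjusted p of 0.93. With single arrays left out, the count of risen genes of the list ranged from 0 to 3, with 0 without HH16 replicate 2 or 3 or HH20 replicate 2 or 3. It was 0 as deposited, with median centring and without an intensity trend, and 4 with only the 2 stages compared.

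RNA-binding proteins typical of progenitor cells included a pair that fell early. Of 14 tested, 0 rose from HH16 to HH20, 2 fell and 12 did not pass, with a median change of -0.04. LIN28A decreased by 0.94 ± 0.18 (SE) log2 units and LIN28B by 0.94 ± 0.19. Both block maturation of let-7 microRNAs. LIN28A was above background on 4 of the 9 arrays, so its fall is that of a dim probe set. The falls had taken place by HH18, by 0.93 for LIN28A and 0.81 for LIN28B, in the same step as the rise of ELAVL2. MSI1, a translational regulator of neural progenitors, rose by 0.34 ± 0.09 in that step and had no call over the whole period.

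A list drawn up for proteins that bind AU-rich elements had 0 risen members, 1 fallen and 9 not passing among 10 tested from HH16 to HH20, with a median change of -0.06. The 1 was ZFP36L1, a decay factor, which decreased by 0.48 ± 0.12 (SE). Whether each listed protein binds the same sites as Hu proteins was not examined. Among 9 tested proteins that partner Hu proteins, 1 rose, 0 fell and 8 did not pass, with a median change of 0.05. It was XPO1, the nuclear export receptor, which rose by 0.37 ± 0.10.

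**Figure D5:**
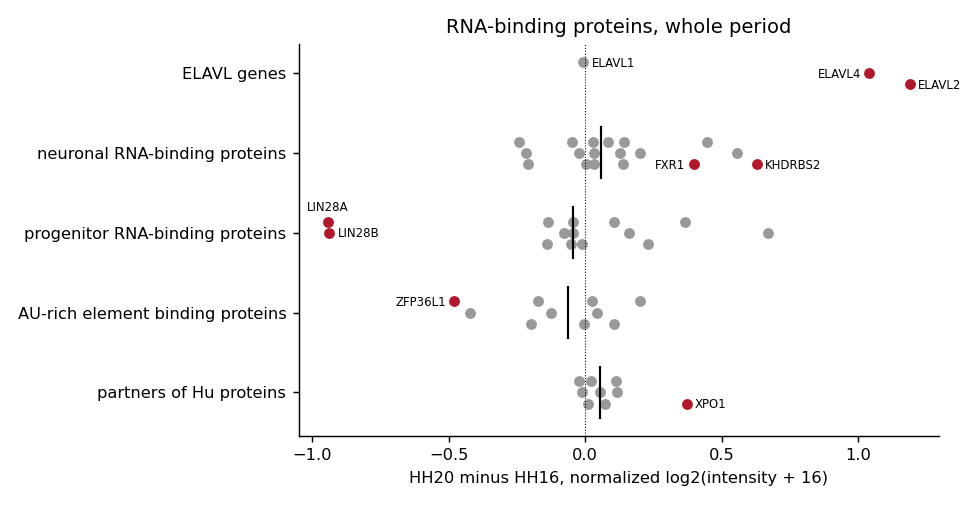
HH20 minus HH16 change in normalized log2(intensity + 16) (horizontal axis) of each tested gene in 4 lists of RNA-binding proteins and Hu partners and of the 3 ELAVL genes by their brightest probe set (rows), with red points for adjusted p under 0.05 and vertical bars at list medians. ELAVL4 at 1.04 and ELAVL2 at 1.19 lie to the right of all listed genes, and LIN28A and LIN28B at -0.94 to the left.

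Of 19 genes whose messages Hu proteins are reported to bind in mammals, 15 were tested, and 3 rose, 1 fell and 11 did not pass from HH16 to HH20, with a median change of 0.03. ACHE, which encodes acetylcholinesterase, rose by 0.68 ± 0.17 (SE) log2 units and was above background on 7 of the 9 arrays. NEUROD1, a transcription factor of neurons, rose by 0.60 ± 0.15 and NEFM, a neurofilament protein, by 0.50 ± 0.16. CCND1, a cyclin that drives entry into the cell cycle, decreased by 0.46 ± 0.12. In the step to HH18, MYC decreased by 0.51 ± 0.13 and the other 14 did not pass. The array measures RNA, so binding was not observed, and NEUROD1 and NEFM were also members of the lists above.

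Markers of other tissues were set beside the ELAVL values. The summed normalized intensity of the 14 placode markers was 8268 to 9466 at HH16, 9009 to 9255 at HH18 and 8936 to 9527 at HH20, so the stages overlapped. Single placode markers moved within this sum. From HH16 to HH20, LHX2 rose by 1.29 and CDH1 by 0.30, OTX2 changed by -0.39, and the other 11 did not pass. For the 8 endothelial markers the sum was 121.1 to 289.3 at HH16, 255.2 to 434.3 at HH18 and 428.4 to 487.6 at HH20, and EGFL7 and CDH5 rose. For 9 tested mesenchymal markers it was 2526 to 2962 at HH16, 2735 to 3860 at HH18 and 3121 to 3375 at HH20, and PRRX1 and COL1A2 rose. Of the 9 mesenchymal markers, however, 4 had a change above 0 and the median change was -0.14, with -0.33 ± 0.23 (SE) for TWIST1 and -0.54 ± 0.17 for PDGFRB, neither past the threshold. Of the 8 endothelial markers 6 had a change above 0, with a median of 0.25. Both summed levels were higher at HH20 than at HH16, as the brightest ELAVL2 and ELAVL4 probe sets were, and their part in the ELAVL results was not tested.

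For 4 tested erythrocyte markers the summed intensity was 1015 to 2254 at HH16, 850.6 to 2841 at HH18 and 2255 to 2962 at HH20, and HBA1 rose. For 5 markers of neural crest and glia it was 2076 to 2483 at HH16, 1657 to 1785 at HH18 and 1670 to 1968 at HH20, and FABP7 fell. FABP7 was the brightest of the 5, with a mean normalized level of 10.99 at HH16, so the sum mostly follows it. Of the 5, 2 had a change above 0 from HH16 to HH20, with a median of -0.003. SOX10 differed by 0.05 and FOXD3 by 0.33, neither past the threshold. For 9 lens markers the summed intensity was 194.3 to 259.3, 258.2 to 309.6 and 263.5 to 284. The lens markers that were called went down, although 6 of the 9 had a change above 0 from HH16 to HH20. CRYBA2, above background on 1 of the 9 arrays, changed by -0.56 from HH16 to HH18. BFSP2 changed by -0.48 from HH16 to HH20. Of 7 eye and forebrain markers on the array, 3 were tested, with a sum of 75.42 to 110, 106.9 to 146.9 and 131.6 to 156.1, and SIX6 rose. The forebrain markers TBR1, EOMES and NKX2-1 were among the 4 too dim to test. These sums also moved between stages, and their part in the ELAVL results was likewise not tested.

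The genes with the course most like each ELAVL gene were taken by Pearson r of brightest probe sets over the 9 arrays, as a description. For ELAVL2 they were SLC25A21 (r = 0.98), NFE2L1 (0.975), TMEM181 (0.974), MXI1 (0.973) and USP41 (0.973). SLC25A21, a mitochondrial carrier, went from 6.85 at HH16 to 7.60 at HH18 and 7.69 at HH20, and MXI1, an antagonist of MYC, from 9.28 to 9.93 and 9.89. Since these genes were picked for their likeness to ELAVL2 on these arrays, the shared course is no separate result. Once stage means were taken away, their r with ELAVL2 was 0.36 to 0.80. TMEM181 had no call from HH16 to HH20, with a limma adjusted p of 0.18.

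For ELAVL4 the most alike were SERINC1 (r = 0.987), PATJ (0.987), GPR137B (0.984), ME3 (0.983) and GPSM2 (0.982). GPR137B went from 4.77 at HH16 to 5.53 at HH18 and 6.08 at HH20, and GPSM2, which orients the mitotic spindle, from 9.10 to 9.28 and 9.37. GPSM2 had no call from HH16 to HH20, with a limma adjusted p of 0.052. Once stage means were taken away, the r of these genes with ELAVL4 was 0.77 to 0.93. For ELAVL1 they were VWA8 (r = 0.977), PDE7A (0.927), VPS26A (0.925), RAB19 (0.924) and SLC40A1 (0.923). VWA8 went from 6.60 at HH16 to 6.67 at HH18 and 6.62 at HH20, and its r with ELAVL1 was 0.98 once stage means were taken away, so its likeness lay among arrays of a stage.

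Genes next to the ELAVL genes were read beside them. Of the 10 nearest tested neighbours of ELAVL2 on each side in the gene order of the assembly GRCg7b, 20 in all, 0 were called between HH16 and HH18, and their changes ranged from -0.38 to 0.46. From HH16 to HH20, 2 of them were higher and 2 lower. Of the 20 neighbours of ELAVL4, 0 were called in either comparison, and of the 20 of ELAVL1, 1 was lower in each. Over all genes tested, 2.92% were called higher and 2.97% lower at HH18 against HH16. At HH20 against HH16 the shares were 7.13% and 6.82%. No result about the neighbours is read from counts this small.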

How the data were processed

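The authors deposited linear intensities, 1 for each array and probe set. The submitters' processing notes name MAS5; neither its version nor a target for scaling is given in the sources used here. Per the labels' protocols, Trizol was used for total RNA and NuGEN kits for amplification and biotin labelling. Of 38535 probe sets, 687 virus probe sets served as background and 155 other controls were left out of tests. Of the chicken probe sets, 27166 had exactly 1 symbol. Probe sets name no genome build, so no coordinates are given.

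Intensities had 16 added, were put on a log2 scale and then quantile normalized between the 9 arrays. The log2 values are thus computed from the deposited ones. Chicken probe sets above the 40th percentile of their array on at least 3 of 9 arrays were tested. limma 3.58.1 in R 4.3.3 (lmFit, eBayes with an intensity trend) fitted 1 mean per stage to all 9 arrays, two-sided, with Benjamini-Hochberg adjustment over 24489 probe sets. The script was tested on simulated data. Differences within arrays had two-sided exact permutation tests. Alternatives covered scaling, pseudocount, filter, array weights, trend, replicate block and omitted arrays.

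The tested probe set with the highest mean represented a gene. All ELAVL probe sets were named, with up to 4 called members of each list per comparison and 5 genes of most alike course. List members, called or not, and cell type markers named beyond this were chosen after their values were seen. The members, lists and markers were chosen with earlier results of these data known. Deviations of same-numbered replicates from their stage means correlated between -0.13 and 0.06, so the numbers were not taken to pair samples.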

Additional observations from a re-analysis of the deposited data

How the results depend on the processing

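The rise of the brightest ELAVL2 probe set by HH18 and by HH20 kept its call in 20 of 21 alternatives each, and that of the brighter ELAVL4 probe set by HH20 in 20 of 21. The exception was the deposited values without normalization, where the log2 changes were 0.79 (limma adjusted p 0.52), 1.17 (0.15) and 0.97 (0.44). On those values the median change of all probe sets was -0.25 from HH16 to HH18, and 0 ELAVL probe sets were called in any comparison, with 44 and 176 calls over all probe sets in place of 1111 and 2673 for HH18 and HH20 against HH16. Called higher were 4.55% of the 44 and 64.2% of the 176, against 50.9% and 53.2% with quantile normalization. With median centring, 1, 2 and 2 ELAVL probe sets were called (HH18 against HH16, HH20 against HH16, any stage), and 596, 805 and 931 over all probe sets. Of the 596 calls in the earlier step 10.2% were higher, and the median of all was -0.17. Over all alternatives the calls over all probe sets ranged from 44 to 1297 for HH18 against HH16, from 10 to 142 for HH20 against HH18 (88 with the settings reported, 70.5% higher; 100% as deposited and 96.7% with median centring), from 176 to 3663 for HH20 against HH16 and from 152 to 2763 for any stage. The step difference had 0 to 35 calls in place of 8. The risen neuron markers numbered 2 as deposited and 6 with median centring, in place of 17, and 0 under both in the earlier step, in place of 6. These counts of markers were added after seeing the data.

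Without a filter, 2 ELAVL probe sets were called in any stage. Leaving out HH16 replicate 1 and HH18 replicate 2 together left 1 call for HH18 against HH16. With 1 array left out, the ELAVL calls ranged from 1 to 3 for HH18 against HH16 and from 2 to 4 for any stage. Replicate numbers as a block left 2 and 3 ELAVL calls for HH18 and HH20 against HH16, and ended the calls of the dimmest ELAVL1 probe set (limma adjusted p 0.064 and 0.054). The block also ended the call of ELAVL2 minus ELAVL1, with a change of 1.197 from HH16 to HH20 and an adjusted permutation p over all 3 stages of 0.083. It changed no other call of an ELAVL probe set or pair of ELAVL genes.

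The HH20 minus HH16 change of ELAVL2 minus ELAVL1 was 1.14 without HH16 replicate 1 and HH18 replicate 2, where the adjusted permutation p over all 3 stages was 0.086. It was 1.06 to 1.39 with 1 array left out. ELAVL4 minus ELAVL1 was then 0.94 to 1.23, and ELAVL4 minus ELAVL2 -0.20 to -0.052, with 0.07 at a pseudocount of 64. With a gene's probe sets averaged, these 3 differences were 0.16, 0.33 and 0.17, and the changes were 0.46 for ELAVL4 to HH18, 0.38 for ELAVL1 to HH20, and 0.13 for ELAVL1 and -0.015 for ELAVL2 from HH18 to HH20. The change of sign there follows from which probe sets enter the mean.

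The pairs of genes were tested over all 3 stages together, so their HH20 minus HH16 changes had no test of their own. That change of ELAVL4 minus ELAVL2 turned, as given above, at a pseudocount of 64 and with averaged probe sets. With averaged probe sets the pair had no call. The other directions that turned for single probe sets were of differences without a call. The cause was not tested. As deposited, HH18 minus HH16 was -0.05 for the middle ELAVL2, -0.36 for the brightest ELAVL1, -0.072 for the dimmer ELAVL4 and -0.18 for the middle ELAVL1 probe set, HH20 minus HH18 was 0.29 for the brightest ELAVL1, and the later step exceeded the earlier by 0.60 for the brighter ELAVL4 probe set. With median centring the values were -0.27 for the brightest and -0.10 for the middle ELAVL1 probe set, 0.22 for the brightest ELAVL1 in the later step, and 0.44 for the step difference of ELAVL4. For the brightest ELAVL1 probe set, trimmed-mean scaling gave 0.004 (HH20 minus HH18) and 0.029 (HH20 minus HH16), array weights 0.014, and omission of both arrays named above 0.018. That omission gave -0.075 for the later step of ELAVL2. With 1 array left out, HH18 minus HH16 ranged from -0.021 to 0.41 (middle ELAVL2), -0.088 to 0.13 (brightest ELAVL1) and -0.023 to 0.50 (dimmer ELAVL4), HH20 minus HH18 from -0.076 to 0.088 (brightest ELAVL2) and -0.14 to 0.088 (brightest ELAVL1), HH20 minus HH16 from -0.021 to 0.17 (dimmest tested ELAVL2) and -0.13 to 0.12 (brightest ELAVL1), and the step difference of the brighter ELAVL4 probe set from -0.39 to 0.014. Typical standard errors, with a median of 0.148 log2 units, limit what 3 arrays a stage can show.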

Other observations

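ELAVL2 lies on the Z chromosome in the RefSeq annotation of the assembly GRCg7b, and the sex of the embryos is not given in the labels. The W-linked gene HINTW, carried by female birds, had normalized levels of 11.50, 11.15 and 10.96 at HH16, of 11.05, 11.00 and 11.11 at HH18, and of 11.23, 11.39 and 11.18 at HH20. The stages overlapped on HINTW, and its HH18 minus HH16 difference of -0.15 had an adjusted p of 0.45 by limma, in the step in which ELAVL2 rose. The part of embryo sex in the ELAVL2 values was not tested.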
